A study of Mus musculus with 38 samples.

Results

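Hyaluronan is a long, unsulfated sugar chain that cells spin directly into the extracellular space. The 8 genes described here make it, hold it in place or cut it, and they were followed in primary mouse embryonic fibroblasts (MEFs) with wild-type or mutant RelA. They were taken by symbol from count tables of 45706 genes: the synthases Has1, Has2 and Has3, the receptor Cd44, the secreted binders Tnfaip6 and Vcan, and the hyaluronidases Hyal1 and Hyal2. All 8 were found in both tables.

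RelA is the NF-kB subunit that carries most inflammatory activation of genes, and the series asks how its target genes use its transactivation. The MEFs were of C57BL/6 strain, either WT or RelA-TA-KI homozygotes, with a knock-in at the gene that encodes RelA. Cells were starved overnight in 0.5% bovine calf serum and then given the stimulus, so untreated cells were starved too. In the first set, WT and RelA-TA-KI cells were left untreated or given TNF at 10 ng/ml for 0.5, 1, 3 or 8 h, with 2 libraries in each of 10 groups. In the second, the same genotypes were untreated or given LPS at 100 ng/ml or Poly(I:C) at 20 ug/ml for the same 4 times, with 1 library in each of 18 groups. LPS is a bacterial cell wall lipid and Poly(I:C) a mimic of viral double-stranded RNA. The labels do not say whether replicates came from separate embryos or cultures, so the p-values measure the spread between these libraries. That spread may be technical in RelA-TA-KI, which was not tested. Macrophage marker sums differed between the RelA-TA-KI libraries numbered 1 and 2, as given below. The WT libraries numbered 1 and 2 differed in sex-linked genes, as given below, so theirs was not technical alone.

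HAS proteins are plasma membrane enzymes that join UDP-glucuronic acid and UDP-N-acetylglucosamine and push the growing chain out of the cell. Cd44 is the main surface receptor for the chain, Tnfaip6 (TSG-6) transfers protein chains onto it, and versican, the product of Vcan, is a large proteoglycan that anchors it in the loose matrix of fibroblasts. Hyal2 cuts long chains at the cell surface and Hyal1 degrades fragments in lysosomes. Inflamed fibroblasts are known for laying down hyaluronan coats that bind leukocytes.

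On mm10 coordinates given in the count tables, Has1 lies on the minus strand of chr17:17843328-17855188, Has2 on the minus strand of chr15:56665627-56694539 and Has3 on the plus strand of chr8:106870242-106884566. Cd44 lies on the minus strand of chr2:102811141-102901665, and Tnfaip6 on the plus strand of the same chromosome at chr2:52038009-52056686. Vcan lies on the minus strand of chr13:89655312-89742509. Hyal2 (chr9:107567945-107572779) and Hyal1 (chr9:107576927-107581710) are neighbours on the plus strand of chromosome 9. Values below are counts over all exons of a gene.

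The stretches before the start sites of Has1, Cd44 and Tnfaip6 are shown because these 3 genes rose in both genotypes under TNF and RefSeq's promoter table (GRCm38.p6) holds them. They run 5′ to 3′ on the gene's strand. Capitals mark a match to TGANTCA, the AP-1 element. The Has1 stretch is chr17:17855189-17855438, that of Cd44 chr2:102901666-102901915, and that of Tnfaip6 chr2:52037863-52038008, ended before the start of the gene in the count tables.
Has1: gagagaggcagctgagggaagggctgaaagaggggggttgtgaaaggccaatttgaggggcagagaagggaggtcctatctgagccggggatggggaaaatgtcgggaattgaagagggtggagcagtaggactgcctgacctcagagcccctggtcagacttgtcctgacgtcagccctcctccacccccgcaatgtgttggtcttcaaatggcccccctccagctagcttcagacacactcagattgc
Cd44: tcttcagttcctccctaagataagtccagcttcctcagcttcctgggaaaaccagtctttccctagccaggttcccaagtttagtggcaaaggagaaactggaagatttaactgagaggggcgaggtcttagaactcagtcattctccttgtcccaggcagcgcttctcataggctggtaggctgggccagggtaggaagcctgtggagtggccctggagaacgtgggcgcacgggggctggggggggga
Tnfaip6: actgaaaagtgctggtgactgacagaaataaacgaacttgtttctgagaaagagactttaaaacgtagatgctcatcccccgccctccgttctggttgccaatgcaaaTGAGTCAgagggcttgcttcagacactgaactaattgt

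Windows of 300 bases, 250 before to 50 after the RefSeq start site, were read for 6 of the 8 members. Matches to the kappaB consensus on either strand were found in 1 of these 6 windows, that of Hyal2, as GGGAATCCCC starting 238 bases before the start site. Of all 32851 promoter windows of the table, 8.5% held such a match. The AP-1 element, read on both strands, was found in 1 of the 6, the Tnfaip6 window, 142 bases before the RefSeq start site, and in 7.8% of all windows. A match describes letters and does not show binding, and windows without one may have elements elsewhere.

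Levels are given as CPM, counts divided by a library total that was normalised within each table, and levels of different genes are compared as RPKM, which also divides by gene length in kilobases. Across the 4 untreated libraries of the TNF set, Cd44 had the highest mean level at 53.7 RPKM (36.7 to 81.9), ahead of Vcan at 32.3 RPKM (26.5 to 36.4). Hyal2 followed at 11.1 RPKM (10.3 to 11.6). Has2 at 6.91 RPKM (4.71 to 10.1) and Tnfaip6 at 6.23 RPKM (5.11 to 7.01) did not differ beyond their spread. Hyal1 stood at 2.92 RPKM (2.52 to 3.30), Has1 at 0.111 RPKM (0.0549 to 0.194) and Has3 at 0.0265 RPKM (0 to 0.0477). Has2 was thus the synthase these fibroblasts held most of: it made up 79.7% to 99.0% of the summed RPKM of the 3 synthases over the 20 TNF libraries and 71.5% to 99.1% over the 18 LPS and Poly(I:C) libraries.

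The libraries held 6715022 to 9590932 counts in the TNF set and 7021799 to 9431334 in the other. Fibroblast markers led in every library (15 genes, summed 33402 to 51026 CPM and 46686 to 87182 CPM in the 2 sets). All 20 macrophage markers had counts in every library, led by Lyz2, Mpeg1 and Csf1r. Their sum was 1357 to 1718 CPM in the WT libraries numbered 1, 1813 to 2735 CPM in those numbered 2, 1563 to 2872 CPM and 2435 to 5429 CPM in RelA-TA-KI numbers 1 and 2, and 4637 to 8181 CPM in the LPS and Poly(I:C) set. The epithelial list summed to 11.8 to 103.4 CPM in the TNF set and 4.21 to 21.9 CPM in the other, the endothelial list to 40.5 to 96.9 CPM and 35.0 to 787 CPM, the muscle list to 102.1 to 239 CPM and 26.9 to 92.5 CPM, and the chondrocyte list to 77.2 to 667 CPM and 74.3 to 188 CPM. In bulk RNA, fewer cells of a type and less RNA per cell cannot be told apart. Libraries also stood apart by sex-linked genes. The 5 WT TNF libraries numbered 2 had Ddx3y at 129 to 162 CPM and Xist at 2.33 to 3.89 CPM, whereas the other 15 had Ddx3y at 0 to 0.675 CPM and Xist at 333 to 512 CPM. In the LPS and Poly(I:C) set, WT libraries had both (Ddx3y 56.0 to 96.1 CPM, Xist 249 to 437 CPM) and RelA-TA-KI libraries had Ddx3y (128 to 184 CPM) with Xist at 0.459 to 1.50 CPM, so that genotype and this difference cannot be told apart there. Rela stood at 71.1 and 73.1 CPM in the untreated WT libraries of the TNF set and at 69.3 and 66.5 CPM in the RelA-TA-KI ones, and a count over the whole gene does not check which allele is carried.

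Under TNF, the synthases Has1 and Has2 peaked at 1 h in WT cells, whereas in RelA-TA-KI cells both were highest at 8 h. At 8 h the mutant cells held more Has2 than WT (log2 difference 1.19, SE 0.18, n = 2 libraries a group). By the ratio of mean CPM, Has2 had then risen 4.54-fold there and Cd44 5.43-fold, against a Cd44 rise of 2.20-fold in WT and a Has2 ratio of 1.24 in WT. The latter had an adjusted p of 0.271, and of 0.0427 with the replicate number as a block within each genotype. The difference between the genotypes' 8 h responses passed the test for Has1, Has2 and Cd44, and for no other member. All adjusted p-values are from edgeR's quasi-likelihood F test over all genes of a table with Benjamini-Hochberg adjustment, and a gene is said to rise, fall or differ where that value is under 0.05.

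**Figure D1:**
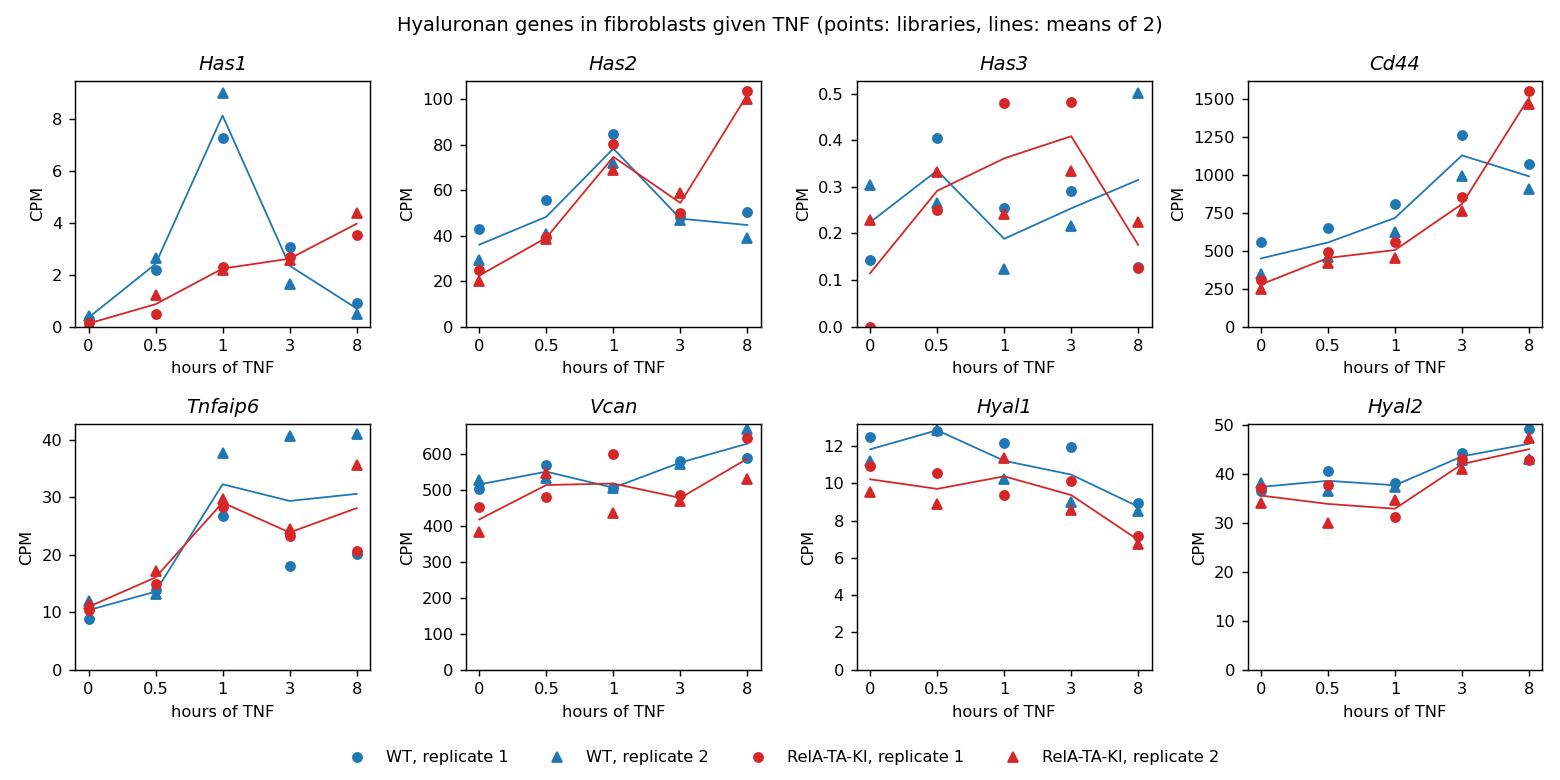
CPM of each member (vertical axis, from 0) against hours of TNF (horizontal axis, times spaced evenly). Circles and triangles are the libraries numbered 1 and 2, lines join the means of 2, blue is WT and red RelA-TA-KI. Has1 and Has2 peak at 1 h in WT and at 8 h in RelA-TA-KI, and Cd44 is highest in the RelA-TA-KI libraries at 8 h (1466 and 1555 CPM).

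Has1, known as the least active of the synthases, was near silent before stimulation, with 2 and 4 counts in the untreated WT libraries and 1 count in each untreated RelA-TA-KI library. In WT it stood at 0.287 and 0.406 CPM untreated, 2.16 and 2.65 CPM at 0.5 h, 7.23 and 8.996 CPM at 1 h, 3.06 and 1.63 CPM at 3 h and 0.895 and 0.502 CPM at 8 h. The mutant cells had 0.123 and 0.115 CPM untreated, then 0.502 and 1.22 CPM, 2.28 and 2.18 CPM, 2.66 and 2.56 CPM, and finally 3.53 and 4.38 CPM at 8 h. The groups did not overlap at 0, 0.5 and 1 h, when WT was above, overlapped at 3 h, and were apart at 8 h with RelA-TA-KI above. Summed over replicates, WT counts at 1 h were 22.8 times the untreated (95% binomial interval 10.2 to 63.3, counting error only) and at 8 h 1.95 times (0.663 to 6.44), while RelA-TA-KI counts at 8 h were 33.6 times the untreated (8.94 to 283).

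In the fit, Has1 rose in WT at 0.5 h (adjusted p = 0.0111), 1 h (7.21e-06) and 3 h (0.00202), and in RelA-TA-KI at 1 h (0.00146), 3 h (0.000285) and 8 h (9.35e-06). It was lower in RelA-TA-KI than in WT at 1 h (log2 difference -1.86, SE 0.31, adjusted p = 0.00598) and higher at 8 h (2.48, SE 0.40, adjusted p = 0.000946). The difference of 8 h responses had an adjusted p of 0.0246, on baselines of 1 to 4 counts. Leaving out 1 library ended that call for either untreated WT library (adjusted p = 0.0707 and 0.138), WT 8 h replicate 2 (0.0706), either untreated RelA-TA-KI library (0.0671 and 0.0927) and RelA-TA-KI 8 h replicate 2 (0.0605). The 1 h genotype difference was lost without WT replicate 2 (0.0877) or either RelA-TA-KI library of that time (0.0943 and 0.105), and the WT rise at 0.5 h without either untreated library (0.113 and 0.119) or 0.5 h replicate 2 (0.0941). With the replicate number as a block, Has1 also rose in RelA-TA-KI at 0.5 h (adjusted p = 0.0314, against 0.0954 without it).

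Has2 is the main synthase of embryonic and mesenchymal tissue. Its WT level was 43.0 and 29.1 CPM untreated, 55.9 and 40.8 CPM at 0.5 h, 84.7 and 72.0 CPM at 1 h, 48.3 and 46.7 CPM at 3 h and 50.3 and 39.2 CPM at 8 h. RelA-TA-KI cells had 25.0 and 20.0 CPM untreated, 39.6 and 38.7 CPM at 0.5 h, 80.3 and 69.1 CPM at 1 h, 50.1 and 58.8 CPM at 3 h, and 104 and 100.2 CPM at 8 h. WT libraries lay above the mutant ones at 0 and 0.5 h, the groups overlapped at 1 h, and the mutant ones lay above at 3 and 8 h.

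The WT rise of Has2 passed the test at 1 h (log2 fold change 1.13, SE 0.19, adjusted p = 0.00221). In RelA-TA-KI, Has2 rose by 1.73 at 1 h (SE 0.19, adjusted p = 0.000114). It was up by 1.27 at 3 h (SE 0.20, adjusted p = 0.00074). The rise at 8 h was 2.17 (SE 0.19, adjusted p = 1.22e-06). Levels at 8 h differed between genotypes (1.19, SE 0.18, adjusted p = 0.000634), as did the 8 h responses (1.85, SE 0.27, adjusted p = 0.00145). At 3 h the difference of responses was 0.86 (SE 0.27, adjusted p = 0.232). With the replicate number as a block, shared by both genotypes, it passed (adjusted p = 0.0181). That block also added rises of Has2 at 3 h in WT (0.0306) and at 0.5 h in RelA-TA-KI (0.00227), and a block within each genotype added WT rises at 0.5 h (log2 fold change 0.43, adjusted p = 0.0458) and 8 h (0.33, 0.0427). The 8 h difference of responses kept its call without any single library (adjusted p 0.000691 to 0.0135) and without all 5 WT libraries numbered 2 (1.97, adjusted p = 0.00241), but not without all 5 RelA-TA-KI libraries numbered 2 (1.73, adjusted p = 0.132).

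Has3 was almost absent under TNF, with 0 to 4 counts in each of the 20 libraries, and it did not pass the filter on low counts. The genotypes overlapped at 4 of the 5 times. Has2os, the antisense transcript of Has2, had 3 to 9 counts per TNF library and 2 to 9 in the other set. The kit marks strand, but whether the counting used it is not given in the sources used here, so reads of the pair cannot be told apart with certainty.

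Cd44, the hyaluronan receptor, stood at 555 and 344 CPM in untreated WT cells, at 653 and 457 CPM at 0.5 h, 809 and 625 CPM at 1 h, 1265 and 994 CPM at 3 h and 1072 and 911 CPM at 8 h. RelA-TA-KI cells went from 307 and 249 CPM through 489 and 416 CPM, 557 and 453 CPM, and 855 and 762 CPM to 1555 and 1466 CPM at 8 h. Mutant libraries lay below WT at 0, 1 and 3 h, overlapped with it at 0.5 h and lay above it at 8 h.

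In WT, Cd44 rose by 1.33 on the log2 scale at 3 h (SE 0.23, adjusted p = 0.00114) and by 1.14 at 8 h (SE 0.23, adjusted p = 0.00249). With the block it also rose at 1 h (0.69, adjusted p = 0.000193), and with a block within each genotype at 0.5 h (0.31, adjusted p = 0.0337). The RelA-TA-KI rise was 1.53 at 3 h (SE 0.23, adjusted p = 0.000628) and 2.43 at 8 h (SE 0.24, adjusted p = 2.79e-06), and the block added rises at 0.5 h (0.000293) and 1 h (2.54e-05). The 8 h responses differed by 1.30 (SE 0.32, adjusted p = 0.027), while the 8 h levels did not pass (0.61, SE 0.23, adjusted p = 0.0845). That difference of responses lost its call without untreated WT replicate 1 (0.90, adjusted p = 0.139), WT 8 h replicate 2 (0.106), untreated RelA-TA-KI replicate 2 (0.122), or RelA-TA-KI 8 h replicate 1 (0.0671) or 2 (0.0657). Without all WT libraries numbered 2 it was 1.50 (adjusted p = 0.00871), and without all RelA-TA-KI libraries numbered 2 it was 1.19 (adjusted p = 0.333).

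Macrophages also express Cd44, and their summed markers were higher at 8 h in each series of libraries. They went from 1484 to 1718 CPM and from 2374 to 2735 CPM in WT numbers 1 and 2 between 0 and 8 h, and from 2034 to 2872 CPM and from 3403 to 5429 CPM in RelA-TA-KI. At 8 h, 2 of 20 of these markers rose in RelA-TA-KI and 1 in WT, where 21.6% and 12% of all genes rose. Their median log2 difference of responses was 0.43. In level, their median log2 difference between RelA-TA-KI and WT was 0.57 untreated and 1.05 at 8 h. At 8 h, 2 of the 20 were called higher in RelA-TA-KI, where 15.9% of all genes differed. Cartilage markers went from 199 to 317 CPM and from 119 to 667 CPM in RelA-TA-KI, with 5 of 8 rising and 1 response differing from WT (6.87% of all genes). At 8 h, 6 of the 8 were higher in RelA-TA-KI than in WT, where 15.9% of all genes differed. The cartilage sum in WT went from 178 to 176 CPM and from 181 to 100.4 CPM. The part of both sets of markers in the results for Has1, Has2 and Cd44 was not tested.

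Tnfaip6, known as a TNF-induced gene, rose in both genotypes. WT cells had 8.74 and 12.0 CPM untreated, 13.9 and 13.3 CPM at 0.5 h, 26.8 and 37.7 CPM at 1 h, 18.04 and 40.6 CPM at 3 h and 20.1 and 41.1 CPM at 8 h. RelA-TA-KI cells had 10.4 and 11.5 CPM, then 14.9 and 17.2 CPM, 28.3 and 29.8 CPM, 23.3 and 24.4 CPM, and 20.7 and 35.5 CPM. The genotypes overlapped at 0, 1, 3 and 8 h, and from 1 h on replicates of WT were further apart than the genotypes' means.

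The WT rise was 1.62 on the log2 scale at 1 h (SE 0.38, adjusted p = 0.0269). At 3 h it was 1.50 (SE 0.38, adjusted p = 0.0155), and at 8 h it was 1.54 (SE 0.38, adjusted p = 0.00985). In RelA-TA-KI it passed at 8 h (1.35, SE 0.38, adjusted p = 0.0107), and with the block at 1 h (0.000935) and 3 h (0.00261) too. The 8 h responses differed by -0.19 (95% interval -1.35 to 0.97, adjusted p = 0.879), an interval that leaves room for large differences either way. These calls leaned on single libraries: without replicate 2 of the time, the WT fold change was 0.80 at 3 h (adjusted p = 0.238) and 0.93 at 8 h (0.16), and the mutant one 0.91 at 8 h (0.139). Leaving out an untreated library ended the WT call at 1 h (0.165 and 0.124), at 3 h (0.0912 and 0.0619) and, for number 1, at 8 h (0.0709), and the RelA-TA-KI call at 8 h (0.0637 and 0.0518). At 1 h the WT call was also lost without either treated library (0.0515 and 0.19).

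Vcan, the versican gene, stood at 504 and 527 CPM in untreated WT, 569 and 533 CPM at 0.5 h, 506 CPM in both libraries at 1 h, 580.1 and 572 CPM at 3 h and 589 and 669 CPM at 8 h. RelA-TA-KI cells had 453 and 384 CPM, 481 and 546 CPM, 601 and 435 CPM, 487 and 468 CPM, and 645 and 529 CPM. The 8 h rise passed in RelA-TA-KI (log2 fold change 0.48, SE 0.13, adjusted p = 0.00951). The WT value was 0.28 (SE 0.13, adjusted p = 0.149, and 0.0327 with a block within each genotype), with a difference of 0.20 between them (95% interval -0.20 to 0.59). A block within each genotype also called a RelA-TA-KI rise at 1 h (0.30, adjusted p = 0.0466). The 8 h RelA-TA-KI call was lost without 8 h replicate 1 (adjusted p = 0.119) or untreated replicate 2 (0.118).

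The hyaluronidases moved in opposite directions at 8 h in RelA-TA-KI. Hyal1 fell there from 10.9 and 9.52 CPM to 7.18 and 6.74 CPM (log2 fold change -0.56, SE 0.18, adjusted p = 0.0207), and Hyal2 rose from 37.0 and 34.1 CPM to 42.7 and 47.3 CPM (0.33, SE 0.11, adjusted p = 0.0252). In WT, Hyal1 went from 12.5 and 11.2 CPM to 8.95 and 8.54 CPM (-0.43, adjusted p = 0.0966, and 0.0411 with the block) and Hyal2 from 36.5 and 38.1 CPM to 49.1 and 43.1 CPM (0.30, adjusted p = 0.0669, and 0.031 with the block). At the times between, Hyal1 lay between 8.59 and 12.9 CPM and Hyal2 between 29.9 and 44.2 CPM. Libraries of 8 h and untreated cells did not overlap for either gene in either genotype, though the WT changes did not pass without the block. The share of all genes lying apart in this way was not counted. The responses differed between genotypes by -0.13 for Hyal1 (95% interval -0.66 to 0.40) and 0.03 for Hyal2 (-0.30 to 0.36). The RelA-TA-KI calls were lost for Hyal1 without untreated replicate 1 (0.121) or either 8 h library (0.0548 and 0.105), and for Hyal2 without replicate 2 of the untreated (0.156) or 8 h (0.16) libraries.

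Read against all genes, the WT response called 1 of the 7 members tested at 0.5 h, where 1.04% of all genes were called, 3 at 1 h (3.81%), 3 at 3 h (15.7%) and 2 at 8 h (20.8%, of which 12% higher and 8.8% lower). In RelA-TA-KI 0 members were called at 0.5 h (1.07% of all genes), 2 at 1 h (3.28%), 3 at 3 h (19%) and all 7 at 8 h, 6 higher and 1 lower, where 42.1% of all genes were called (21.6% higher, 20.5% lower). At 0.5 h in RelA-TA-KI, 3 members had an unadjusted p under 0.05 and DESeq2 called 1.

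Genotype differences were called for 0 members at 0 and 0.5 h (0.00722% and 0.195% of all genes), 1 at 1 h (0.91%), 0 at 3 h (3.19%) and 2 at 8 h (15.9%). At 0, 0.5 and 3 h, 3, 2 and 1 members had an unadjusted p under 0.05, and DESeq2 called 0 at each. Differences of responses were called for 0 members at 0.5, 1 and 3 h (0.0506%, 0.311% and 0.932% of all genes), where 0, 1 and 1 members had an unadjusted p under 0.05 and DESeq2 called 0. At 8 h they were called for 3 members, all higher in RelA-TA-KI, where 6.87% of all genes were called (3.45% higher, 3.42% lower). The 3 kinds of comparison share control libraries and so are not independent of each other.

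**Figure D2:**
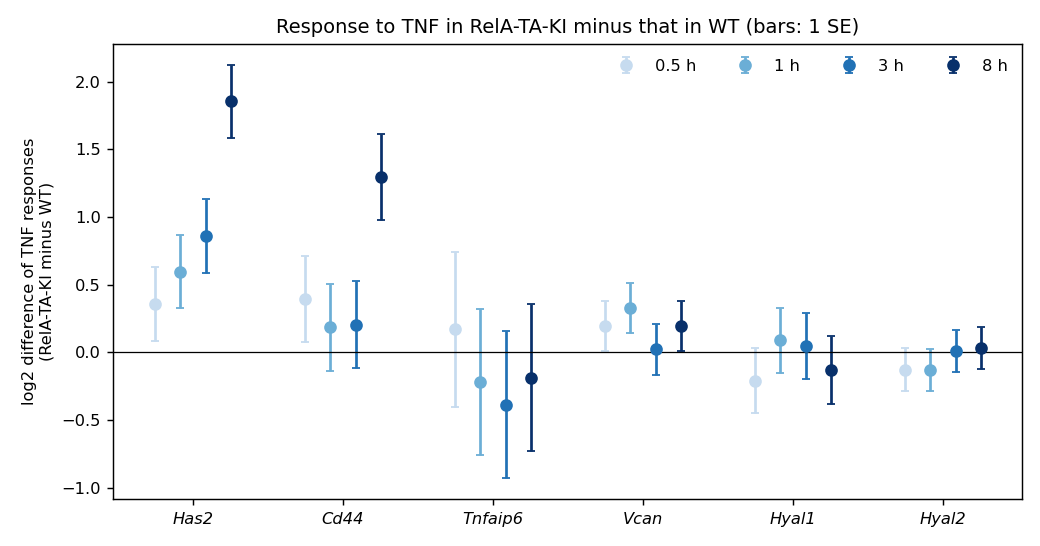
Log2 response to TNF in RelA-TA-KI minus that in WT (vertical axis) for 6 members, with 1 SE bars and darker points for later times (0.5, 1, 3 and 8 h). Has2 and Cd44 stand highest at 8 h, at 1.85 and 1.30, and the other 4 genes lie between -0.19 and 0.20 at that time. Has1 and Has3 are not drawn because their counts are too low for a stable SE.

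LPS and Poly(I:C) were followed in single libraries, without a replicate check, and the levels were not tested against those of the TNF set. Has2 and Tnfaip6 were highest at 3 h of LPS in both genotypes, Has3 came up from near 0 at 3 h of either stimulus, Cd44 and Vcan were highest at 8 h of LPS, and both hyaluronidases were at their lowest at 3 or 8 h of LPS. Fold changes in this set carry exact 95% binomial intervals, which cover counting error only.

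Has2 in WT stood at 4.89 CPM untreated, then 4.94, 13.6, 639 and 183 CPM after 0.5, 1, 3 and 8 h of LPS, and 5.34, 5.48, 259.8 and 388 CPM after Poly(I:C). RelA-TA-KI cells had 7.65 CPM untreated, then 13.5, 21.3, 1143 and 421 CPM after LPS and 11.6, 11.5, 369.7 and 282 CPM after Poly(I:C). The 3 h LPS level was 131 times the untreated one in WT (100.0 to 174) and 149 times in RelA-TA-KI (119 to 189). For scale, the TNF peak of Has2 was 2.17 times its untreated mean in WT, but the sets were scaled separately and their untreated levels differed (20.0 to 43.0 CPM in the TNF set), so no test was made between them. The mutant level was above WT in 8 of 9 conditions, and below at 8 h of Poly(I:C) (0.726 times, 0.683 to 0.771).

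Has1 had 0 counts in both untreated libraries of this set. Against a floor of 3 counts in that library, WT was at least 118-fold higher at 3 h of LPS (32.0 CPM, 214 counts) and at least 46.8-fold higher at 8 h (12.7 CPM), and RelA-TA-KI at least 192-fold (57.2 CPM, 399 counts) and at least 14.8-fold (4.41 CPM) higher. Under Poly(I:C), WT had 2.67 CPM at 3 h and 2.63 CPM at 8 h, at least 9.83-fold and 9.70-fold higher, and RelA-TA-KI had 15.9 CPM and 2.82 CPM, at least 53.2-fold and 9.46-fold higher. The mutant level was thus 5.94 times WT at 3 h of Poly(I:C) (3.74 to 9.90) and 1.79 times at 3 h of LPS (1.51 to 2.12), but 0.347 times at 8 h of LPS (0.217 to 0.542).

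Has3, which makes shorter chains than its relatives, had 3 counts untreated in WT and 1 in RelA-TA-KI. At 3 h of LPS it had 218 counts in WT (32.6 CPM, 120 times the untreated level, 40.5 to 587) and 96 in RelA-TA-KI (13.8 CPM, 139 times, 24.3 to 5529). By 8 h of LPS it was back at 4 and 3 counts. Under Poly(I:C) it had 112 and 77 counts at 3 h (14.2 and 8.84 CPM), and at 8 h 49 counts in WT (7.17 CPM) against 3 in RelA-TA-KI (0.470 CPM), which is 0.0656 times WT (0.0131 to 0.203). So at 3 h the mutant libraries had more Has1 and Has2 and less Has3 than WT under both stimuli.

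**Figure D3:**
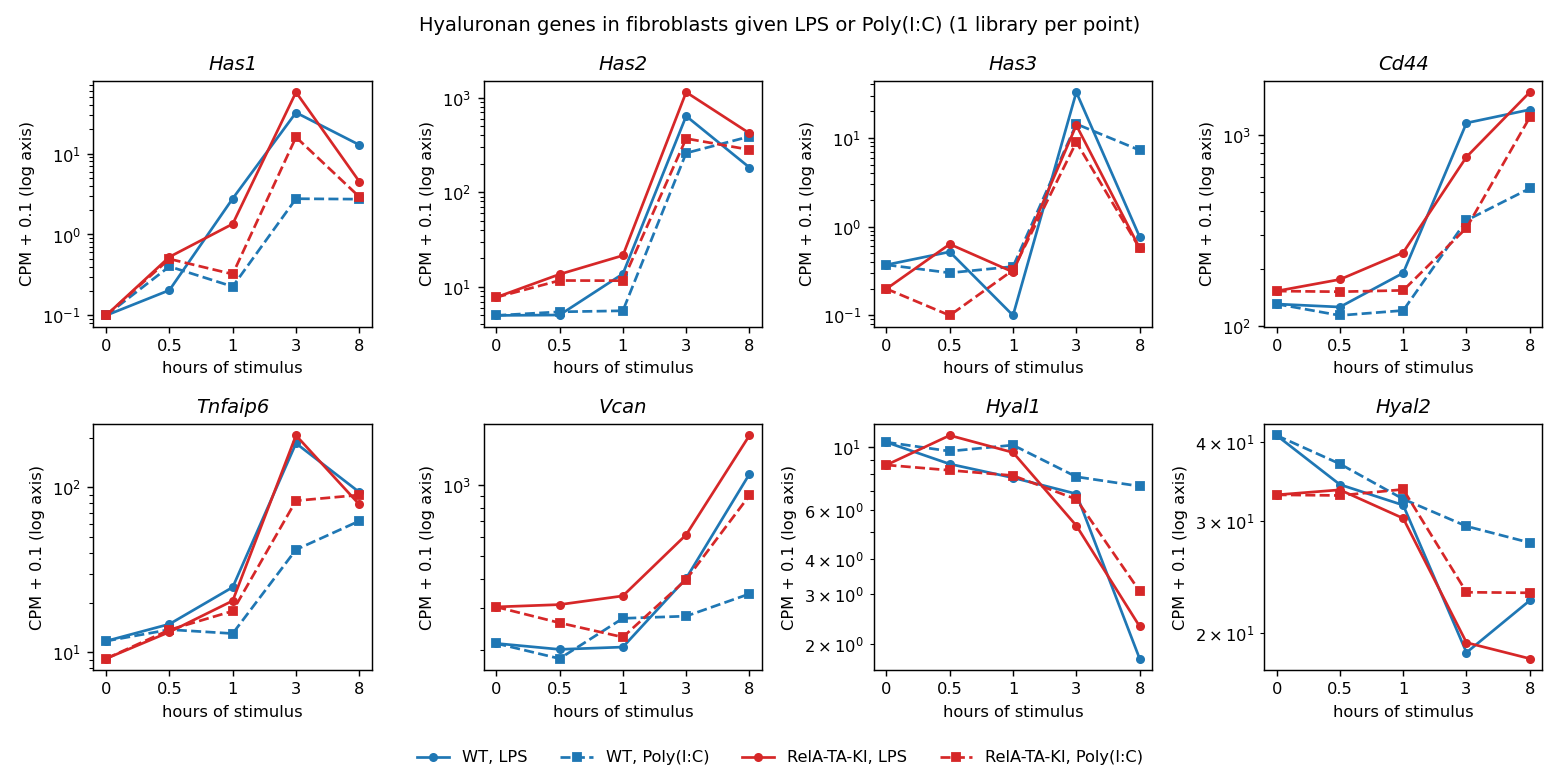
CPM plus 0.1 of each member (vertical axis, log scale, a range of its own in each panel) against hours of LPS (solid lines, circles) or Poly(I:C) (dashed lines, squares), times spaced evenly. Blue is WT, red RelA-TA-KI, and each point is 1 library. The synthases jump between 1 and 3 h, Has2 to 639 CPM in WT and 1143 CPM in RelA-TA-KI under LPS, while Hyal1 and Hyal2 go down.

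Cd44 went from 131 CPM in untreated WT to 126, 189.8, 1152 and 1351 CPM over the LPS times and to 114, 121, 357 and 525 CPM over those of Poly(I:C). The mutant series ran from 153 CPM to 176, 243, 766 and 1667 CPM and to 152, 154, 326 and 1233 CPM. At 8 h of Poly(I:C) RelA-TA-KI was 2.35 times WT (2.26 to 2.45), and at 3 h of LPS 0.665 times (0.642 to 0.689). That mutant library of 8 h of Poly(I:C) had high marker sums. Macrophage markers summed to 8181 CPM in it and to 6493 CPM in the WT one, endothelial markers to 787 and 164 CPM (35.0 to 290.1 CPM in the other 8 mutant libraries), and fibroblast markers to 87182 and 50828 CPM. Its median endothelial gene (1.80 CPM) and median fibroblast gene (1040 CPM) lay within the other mutant libraries (0.748 to 3.31 CPM and 845 to 1086 CPM). The endothelial and fibroblast sums thus do not speak for each list as a whole. The median macrophage gene, at 305 CPM, lay above that of the other mutant libraries (180 to 258 CPM). In the WT library of 8 h of Poly(I:C) it was 211 CPM. The part of the markers in the levels of Cd44 and Vcan there was not tested.

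Tnfaip6 started at 11.6 CPM in WT and 9.04 CPM in RelA-TA-KI. It peaked at 3 h of LPS, at 185 CPM in WT (16.0 times the untreated level, 13.3 to 19.3) and 207 CPM in RelA-TA-KI (22.9 times, 18.5 to 28.6). Before that it had reached 24.7 and 20.4 CPM at 1 h, and at 8 h it stood at 93.5 and 78.7 CPM. Under Poly(I:C) it was at 12.9 CPM in WT and 17.7 CPM in RelA-TA-KI at 1 h. Later it stood at 41.8 and 62.5 CPM at 3 and 8 h in WT and at 82.9 and 89.8 CPM in RelA-TA-KI, 1.98 times (1.74 to 2.27) and 1.44 times (1.27 to 1.63) the WT level.

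Vcan went from 213 CPM in untreated WT to 200.5, 205, 401 and 1113 CPM over the LPS times, and to 183, 272, 277 and 345 CPM over those of Poly(I:C). The mutant series ran from 304 CPM to 311, 338, 615 and 1623 CPM and to 259.9, 226, 396 and 903 CPM. Vcan was thus highest at 8 h of LPS, at 1113 CPM in WT (5.24 times, 4.99 to 5.49) and 1623 CPM in RelA-TA-KI (5.35 times, 5.13 to 5.57). At 8 h of Poly(I:C) it stood at 345 CPM in WT and 903 CPM in the mutant, whose level was 2.62 times that of WT (2.49 to 2.75). In that mutant library the endothelial (787 against 164 CPM) and fibroblast (87182 against 50828 CPM) marker sums also lay above those of WT. The median gene of either list lay within the other mutant libraries, as given above.

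Hyal1 stood at 10.3 CPM in untreated WT and 8.55 CPM in untreated RelA-TA-KI cells, and at 6.73 and 5.16 CPM after 3 h of LPS. It was at its lowest at 8 h of LPS, with 1.67 CPM in WT (0.162 times untreated, 0.0757 to 0.309) and 2.21 CPM in RelA-TA-KI (0.258 times, 0.136 to 0.457). At 8 h of Poly(I:C) it stood at 7.17 CPM in WT (0.695 times, 0.487 to 0.979) and at 2.98 CPM in RelA-TA-KI (0.348 times, 0.200 to 0.578). Hyal2 started at 40.8 CPM in WT and 32.9 CPM in RelA-TA-KI. It reached 18.5 CPM in WT at 3 h of LPS (0.454 times, 0.369 to 0.555) and 18.1 CPM in RelA-TA-KI at 8 h (0.551 times, 0.442 to 0.684). After 8 h of Poly(I:C) it stood at 27.6 CPM in WT and 23.0 CPM in RelA-TA-KI. No Hyal2 level after 3 or 8 h of either stimulus was above the untreated one. The direction of Hyal2 was thus down under LPS and up at 8 h of TNF in RelA-TA-KI, in tables that were not tested against each other.

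Each genotype has 1 library per condition in this set, so genotype cannot be told apart from the sex-linked difference given above. With the conditions in place of replicates, p measures how a difference varied over conditions, and not between cultures. A genotype difference shared by the 9 conditions can be tested in this way. It was called for Has2 (log2 difference 0.71, SE 0.17, adjusted p = 0.0135, higher in RelA-TA-KI in 8 of 9 conditions) and Vcan (0.57, SE 0.12, adjusted p = 0.00703, higher in 8 of 9), that is for 2 of 7 members tested where 15.9% of 12752 genes were called. Over the 4 conditions of 3 and 8 h, Vcan was called (0.75, SE 0.16, adjusted p = 0.00749) and Has2 was not (0.51, SE 0.20, adjusted p = 0.0992), 1 of 7 members against 20.9% of genes. Without the 8 h Poly(I:C) pair that late Has2 difference was 0.84 (adjusted p = 0.00109) and that of Vcan 0.55 (adjusted p = 0.0226). Over the other 8 conditions, without that pair, the differences were 0.89 for Has2 (adjusted p = 0.000137) and 0.47 for Vcan (adjusted p = 0.00516). Has2 was lower in RelA-TA-KI only in that pair, so leaving it out was bound to raise the Has2 difference. Over 12 alternatives the late Has2 difference was 0.31 to 0.84 and was called in 2 (adjusted p up to 0.332). The Has2 difference shared by the 9 conditions was called in all 12 (adjusted p up to 0.0374). Has3 did not pass the filter on low counts here. In the TNF set Vcan had no such difference at any time (log2 differences -0.30 to 0.03, lowest adjusted p = 0.411). The difference of Has2 there was -0.67 in untreated cells (adjusted p = 0.514) and 1.19 at 8 h (adjusted p = 0.000634).

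The wider hyaluronan pathway was read from 5 lists of 65 genes, 52 of them tested in the TNF set. At 8 h, 9 of the 52 rose and 7 fell in WT (median log2 fold change 0.01, against -0.01 over all genes), where 12% of all genes rose and 8.8% fell. In RelA-TA-KI, 19 rose and 8 fell (median 0.17, against -0.02), where 21.6% of all genes rose and 20.5% fell. Among the 45 that are not members, 7 rose and 7 fell in WT, and 13 rose and 7 fell in RelA-TA-KI. For 6 of the 52 the RelA-TA-KI response was higher than that of WT and for 2 lower (median difference 0.10, against -0.01), where 3.45% of all genes were higher and 3.42% lower.

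By list, the receptors and signal partners had 3 rises and 0 falls in WT and 6 and 1 in RelA-TA-KI, among 11 tested. The 11 matrix binders had 2 and 2 in WT and 3 and 1 in RelA-TA-KI, the 9 cleavage genes 2 and 2 and then 2 and 4, and the 9 degradation genes 0 and 1 and then 1 and 1. These counts stand against the same shares of all genes, with 20.8% called in WT and 42.1% in RelA-TA-KI in either direction. Of 12 synthesis genes tested, 2 rose and 2 fell at 8 h in WT, 7 rose and 1 fell in RelA-TA-KI (median 0.48), Has1 and Has2 among the 7, and 5 responses were higher in RelA-TA-KI and 0 lower (median difference 0.46). Besides Has1 and Has2, these 5 are enzymes of the route to UDP-N-acetylglucosamine. Gfpt2, which makes glucosamine 6-phosphate in its first step, went from 22.5 and 17.3 CPM to 85.0 and 85.8 CPM in RelA-TA-KI and from 21.2 and 22.5 CPM to 47.5 and 46.2 CPM in WT (difference of responses 1.00, SE 0.16, adjusted p = 0.00269). Gnpnat1, which acetylates that product, went from 15.4 and 16.9 CPM to 27.8 and 31.1 CPM in RelA-TA-KI and from 18.3 and 21.0 CPM to 18.9 and 23.0 CPM in WT (0.77, SE 0.20, adjusted p = 0.0347). Uap1, which forms the UDP-sugar, went from 52.1 and 52.2 CPM to 89.2 and 82.9 CPM in RelA-TA-KI and from 57.3 and 54.7 CPM to 69.7 and 67.7 CPM in WT (0.42, SE 0.08, adjusted p = 0.0086). For each of the 3 genes, both RelA-TA-KI libraries at 8 h lay above both WT ones, which describes the libraries that gave the calls. The share of all genes lying apart was not counted.

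**Figure D4:**
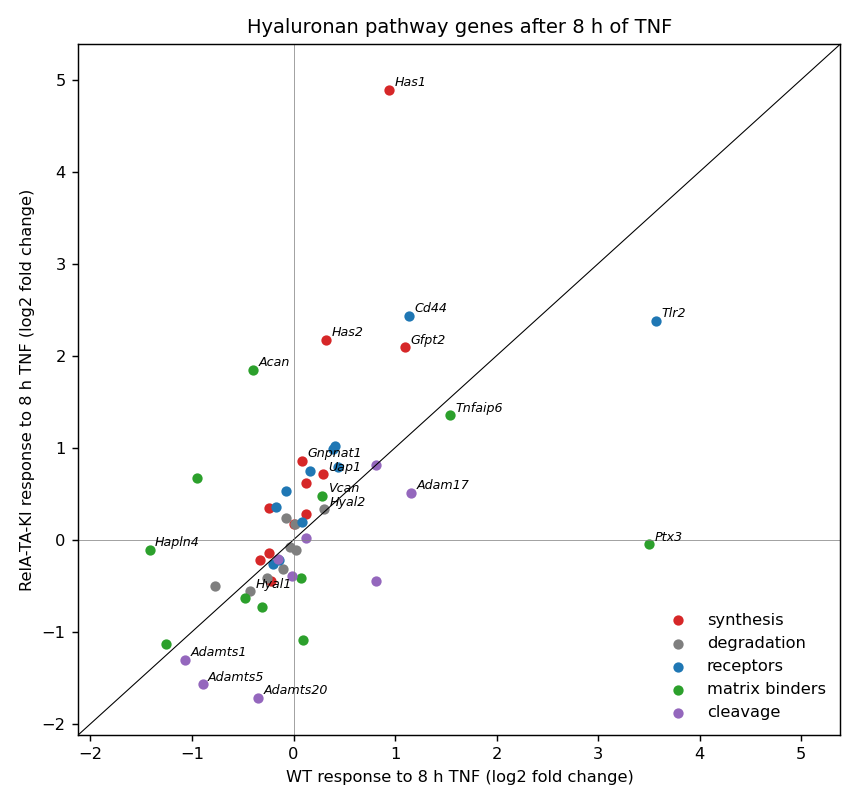
Log2 fold change after 8 h of TNF in RelA-TA-KI (vertical axis) against WT (horizontal axis) for the 52 pathway genes tested, coloured by list, with the line of equal change. Has1, Has2, Cd44, Gfpt2, Gnpnat1 and Uap1 lie above the line and Ptx3 far below it. Both axes share the untreated libraries of their own genotype, and Has1 rests on few counts.

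Ptx3, a pentraxin that crosslinks the protein chains Tnfaip6 loads onto hyaluronan, moved the other way. It went from 47.3 and 64.6 CPM to 494 and 779.6 CPM in WT (log2 fold change 3.50, SE 0.25, adjusted p = 2.6e-07) and from 61.3 and 90.8 CPM to 66.8 and 81.4 CPM in RelA-TA-KI, so that the responses differed by -3.55 (SE 0.34, adjusted p = 5.43e-05). Tlr2, a bacterial lipoprotein receptor that hyaluronan fragments are reported to engage, rose in both, from 13.9 and 20.4 CPM to 171 and 242 CPM in WT and from 14.3 and 21.2 CPM to 68.1 and 118 CPM in RelA-TA-KI. Adam17, a Cd44 sheddase, rose in WT (1.16, SE 0.15, adjusted p = 6.17e-05). Acan, the cartilage relative of versican, rose in RelA-TA-KI from 10.9 and 4.82 CPM to 16.4 and 40.1 CPM (1.85, SE 0.52, adjusted p = 0.0111), beside the cartilage markers given above, of which it is one. Neither Adam17 nor Acan was called in the difference of 8 h responses between genotypes.

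The versican-cutting proteases Adamts1 and Adamts5 fell in both genotypes at 8 h. Adamts5 went from 310.1 and 349 CPM to 166 and 189 CPM in WT and from 289.9 and 326 CPM to 108 and 100.9 CPM in RelA-TA-KI, a larger fall there (difference of responses -0.67, SE 0.13, adjusted p = 0.0095). Adamts1 went from 393 and 424 CPM to 178 and 212 CPM in WT and from 357 and 399.6 CPM to 159 and 150.1 CPM in RelA-TA-KI. Hapln4, a link protein, fell in WT from 1.58 and 1.52 CPM to 0.384 and 0.753 CPM (-1.42, SE 0.48, adjusted p = 0.0476), on 3 to 15 counts per library. Adamts20 fell in RelA-TA-KI from 3.43 and 1.72 CPM to 0.756 and 0.787 CPM (-1.72, SE 0.47, adjusted p = 0.00877). Neither Hapln4 nor Adamts20 was called in the difference of 8 h responses between genotypes.

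In the LPS and Poly(I:C) set 49 pathway genes were tested, again with conditions in place of replicates. A genotype difference over the 9 conditions was called for 6 higher and 8 lower in RelA-TA-KI (median -0.06, against -0.01 over all genes), where 15.9% of all genes were called in either direction. Over the late conditions it was called for 7 higher and 9 lower, where 20.9% of all genes were called. Tlr2 was lower in the mutant cells (-1.94, SE 0.26, adjusted p = 0.00035), at 1629 and 268 CPM after 3 h of LPS in WT and RelA-TA-KI. Also lower were the link protein gene Hapln1 (-1.60, SE 0.13, adjusted p = 7.88e-06) and Itih2, a heavy chain that Tnfaip6 can load onto hyaluronan (-1.07, SE 0.06, adjusted p = 8.16e-07), all 3 in each of 9 conditions. Higher were Ncan, a brain hyalectan (1.10, SE 0.13, adjusted p = 0.000155), Cemip, a hyaluronan depolymerase (0.51, SE 0.09, adjusted p = 0.00345), and Ezr, which links Cd44 to actin (0.30, SE 0.04, adjusted p = 0.000621). All 3 were above WT in each of 9 conditions. Ugdh, which makes UDP-glucuronic acid, was higher over the late conditions (0.41, SE 0.08, adjusted p = 0.0042).

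Genes whose mean log2 CPM over the 10 TNF groups ran closest to a member are given as a description, since points share libraries and depth. For Has2 these were Pxdc1 (Pearson r = 0.97), Rabgef1 (0.97) and Abl2 (0.96), and for Cd44 Phb2, Eef1d and Txnrd1 (each 0.99). Those nearest Tnfaip6 were Rnf19a (0.95), Eny2 (0.95) and Dusp16 (0.93). Vcan ran with Igsf9b (0.97), Sephs2 (0.94) and Rbm28 (0.94). Hyal1 ran with BC029722 (0.98), Usp20 (0.97) and Kirrel3 (0.95), and Hyal2 with Hip1r (0.98), Supv3l1 (0.97) and Nepro (0.97). Among the members, Has1 and Has2 had r = 0.88.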

How the data were processed

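Poly(A) RNA of 38 MEF libraries was sequenced as single 50-base reads from a stranded kit, per the labels' protocols. The submitters' processing notes name cutadapt 1.9.1, STAR, featureCounts 1.4.6, DESeq2 and mm10. The authors deposited raw counts per gene with gene lengths, 1 table for TNF (20 libraries) and 1 for LPS and Poly(I:C) (18). No row lacked a gene, and 0 sample columns went unused.

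Here each table was scaled by TMM and fitted whole with edgeR 4.0.16 in R 4.3.3 (quasi-likelihood, filterByExpr; 13843 and 12752 genes tested). Residual degrees of freedom were 10 for the TNF model, with a term for each group, and 8 for the other, with condition and genotype (7 with separate early and late genotype terms). An SE is the log2 fold change divided by the root of F. The fitting code was tested on simulated data. Replicates of a group correlated at 0.982 to 0.989. Statements that groups overlapped or lay apart describe the 2 libraries of each, and the share of all genes lying apart was not counted. Within a genotype, same-numbered libraries deviated together (r 0.161 to 0.53 over 20 pairs of groups), so blocked values stand beside responses whose call they change. Between genotypes r was 0.006 to 0.338 over 25 pairs (median 0.212, against 0.303 within a genotype). These ranges overlap, so the check does not settle whether numbers pair libraries between genotypes. Such a pairing is not assumed. Precision is limited by 6715022 to 9590932 and 7021799 to 9431334 counts per library in the 2 sets.

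The members and all lists were chosen with earlier results of these data known. Of pathway genes, the 3 with the largest change in each direction among those called at 8 h in each genotype, in the difference of responses and in the LPS and Poly(I:C) tests are named, and the 3 genes most correlated with each member of at least 20 mean counts. Alternatives were RLE scaling, DESeq2 1.42.0, no filter, only the contrast's groups, the replicate block and each library or condition left out. Leaving out all libraries numbered 2 of a genotype, and a block within each genotype, were added after seeing the data.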

Additional observations from a re-analysis of the deposited data

Results flagged for a closer look

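The response to 8 h of TNF differed between genotypes for 3 of the 8 genes by a test of the difference itself (edgeR quasi-likelihood F test, interaction contrast, Benjamini-Hochberg over 13843 genes). The log2 difference, RelA-TA-KI minus WT, was 1.85 for Has2 (SE 0.27, adjusted p = 0.00145), 1.30 for Cd44 (SE 0.32, adjusted p = 0.027) and 3.94 for Has1 (adjusted p = 0.0246, on 1 to 4 counts in each untreated library). At 8 h both RelA-TA-KI libraries lay above both WT libraries for each of the 3. These libraries also gave the calls, so this describes them and adds no support. The share of all genes lying apart in this way was not counted. The test of 8 h levels did not pass for Cd44 (adjusted p = 0.0845). Untreated levels enter these differences and leaned lower in RelA-TA-KI (log2 -0.67 for Has2, -0.69 for Cd44 and -1.46 for Has1, none called). The sign of the difference of responses was kept in all 16 alternatives for each gene, and the call in 15 for Has2, 9 for Cd44 and 7 for Has1. Log2 differences over those alternatives ranged from 1.55 to 2.13 for Has2, 0.90 to 1.61 for Cd44 and 3.31 to 4.41 for Has1. Their adjusted p ranged from 9.2e-26 to 0.132 for Has2, 6.78e-24 to 0.333 for Cd44 and 0.00887 to 0.264 for Has1, lowest with no filter on low counts. Without that filter the genotype difference in untreated cells was called for 740 of 26172 genes, against 1 of 13843 with it. The lowest adjusted p-values are thus not taken as a measure of strength. No explanation was tested.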

How the results depend on the processing

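Of 30 calls on members, 10 held in all alternatives run, among them the 8 h rises of Has1, Has2 and Cd44 in RelA-TA-KI and the 8 h genotype differences of Has1 and Has2, and all 30 kept their sign. The WT response of Cd44 at 0.5 h, which was not called, was -0.0156 to 0.69 with 1 library left out and turned negative without untreated replicate 2. Members called at any time numbered 4 in the WT response (7 with a block within each genotype), 7 in the RelA-TA-KI response (4 to 7 with 1 library left out, 4 without all its libraries numbered 2), 2 in the genotype difference (4 with no filter) and 3 in the difference of responses. The last was 1 with only the groups of the contrast, 1 to 3 with 1 library left out, and 0 by edgeR without the RelA-TA-KI libraries numbered 2, where 3 members had an unadjusted p under 0.05 at 8 h. Over the late LPS and Poly(I:C) conditions 1 member was called, 3 with no filter and 1 to 3 with 1 condition left out. With only the groups of the contrast, WT calls were also lost for Has2 at 1 h (adjusted p = 0.0601), Cd44 at 3 h (0.053), Has1 at 0.5 and 3 h (0.159 and 0.0758) and Tnfaip6 at 3 and 8 h (0.103 and 0.0539). DESeq2 did not call Hyal1 at 8 h in RelA-TA-KI (0.0826). The causes were not tested.

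With the replicate block, 6 members were called in the WT response, and calls were also made on the genotype difference for Cd44 at 0 h (-0.67, adjusted p = 0.00095), 1 h (0.00771), 3 h (0.00513) and 8 h (0.61, 0.00018) and for Has2 at 0 h (-0.66, 0.0148). That block takes a number to mean the same in both genotypes, a pairing not assumed here, so no weight is put on these genotype calls. Among the member results rerun with either block, the pairing changed no calls other than these and those given beside the responses. Depth limits Has1 and Has3, which had at most 73 and 4 counts per TNF library.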
